A study of Homo sapiens with 6 samples.

Results

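Oxysterol-binding proteins and their relatives carry lipids between membranes, and 10 of the genes that encode them were followed here in HT1080 cells given 1 of 2 KDAC6 inhibitors. The 10 members are OSBP, OSBP2, OSBPL1A, OSBPL2, OSBPL3, OSBPL5, OSBPL6, OSBPL8, OSBPL9 and OSBPL10. They were taken by gene name from a table of 60675 genes, each name matched 1 row, and all 10 had enough counts to be among the 16905 genes tested. The human family has 12 genes in 6 subfamilies, and the remaining OSBPL7 and OSBPL11 are given beside the members. OSBP2 was selected on its measured difference in level between the compounds, and its relatives were added by name. The differences of the members are therefore given as a description, with no p-value.

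The study asked how selective inhibitors of KDAC6 (HDAC6), a lysine deacetylase, are. HT1080 is an established human fibrosarcoma line, labelled wild type. Cells received SW-138 at 1 µM for 48 h (3 libraries) or SW-113 at the same dose and time (3 libraries), and total RNA depleted of ribosomal RNA was sequenced. No vehicle-treated cells were analysed here, so "higher" and "lower" compare SW-138 with SW-113, and which compound moved a gene cannot be told apart. Whether replicates came from separate cultures is not stated, and p-values may then reflect technical spread alone.

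Each protein of the family has a domain that holds a single lipid, such as a sterol, phosphatidylserine or the phosphoinositide PI4P. Most also carry a pleckstrin homology domain that reads phosphoinositides and a short motif that binds the endoplasmic reticulum proteins VAPA and VAPB, which places them where membranes touch. OSBP itself is known for moving cholesterol from the endoplasmic reticulum to the Golgi in exchange for PI4P, and oxysterols compete for its lipid pocket.

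Library totals ranged from 32771670 to 50871623 estimated read counts. One library, SW-138 replicate 2, lay far from the rest: it scored -43.4 on a first principal component holding 30.6% of the variance, and the remaining 5 scored between -7.27 and 28.2. Values without it are given beside several of the results below. Counts of RN7SL1, the RNA of the signal recognition particle, made up 2.56% ± 0.380 of the SW-138 libraries and 4.11% ± 0.349 of the SW-113 libraries (SD, n = 3 each). Its part in the values below was not tested. Of 9 mesenchymal markers, VIM (3329 to 3861 CPM over the libraries, counts scaled by library size), FN1, CD44 and MMP14 were abundant, while THY1 stayed at or below 0.109 CPM and S100A4 at or below 1.11 CPM. All 9 mesenchymal markers summed to 7022 to 8111 CPM in SW-138 and to 6568 to 7386 CPM in SW-113, most of it from the abundant genes. Between these lay MMP1 at 45.2 to 69.4 CPM, COL5A1 at 15.1 to 23.8 CPM and TWIST1 at 7.41 to 10.5 CPM over the libraries. Markers of other cells were low in both groups, apart from CD68. The 7 epithelial markers summed to 2.84 to 3.62 CPM in SW-138 and 2.38 to 3.37 CPM in SW-113, with KRT5 and KRT14 at 0. The 4 endothelial markers summed to at most 0.959 CPM and the 5 muscle markers to at most 2.85 CPM, with MYOD1 and MYOG at 0. Of the 6 blood markers, HBB was at 0, PTPRC at or below 0.0296 CPM, and the macrophage and lysosomal gene CD68 supplied nearly all of a sum of 74.7 to 93.0 CPM in SW-138 and 89.8 to 95.4 CPM in SW-113.

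OSBP2 lies on chromosome 22 from 30693782 to 30907824 on the plus strand (GRCh38, GENCODE release 29), with 19 annotated transcripts from 14 start positions. The counts are per gene, so starts and isoforms were not separated. RefSeq's promoter sequences matched all 12 family genes with 19 start sites, of which 2 belong to OSBP2. The 250 bases before each of these 2 starts are printed because OSBP2 is the member whose level differed most. Both windows are on the plus strand of GRCh38.p14, chr22:30764003-30764252 and chr22:30822266-30822515, and neither overlaps an annotated exon of the gene. Capitals mark matches to the motifs listed after the sequences.
OSBP2 start at 30764253: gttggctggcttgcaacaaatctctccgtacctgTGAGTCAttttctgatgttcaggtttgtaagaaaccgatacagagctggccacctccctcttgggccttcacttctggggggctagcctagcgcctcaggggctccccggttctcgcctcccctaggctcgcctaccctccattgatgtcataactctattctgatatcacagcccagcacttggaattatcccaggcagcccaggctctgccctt
OSBP2 start at 30822516: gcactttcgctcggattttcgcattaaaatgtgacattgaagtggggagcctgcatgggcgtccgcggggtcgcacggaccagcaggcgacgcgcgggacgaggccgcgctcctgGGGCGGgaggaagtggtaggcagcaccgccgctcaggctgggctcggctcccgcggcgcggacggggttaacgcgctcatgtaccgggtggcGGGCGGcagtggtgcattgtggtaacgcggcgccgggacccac

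The windows of both OSBP2 starts and of the other family genes were searched on both strands for 10 motifs. These were the GC box GGGCGG, the CCAAT box CCAAT, the TATA box TATAAA, the E-box CACGTG, the cAMP response element TGACGTCA, the AP-1 element TGANTCA, the sterol regulatory element, the LXR element, the EGR element GCGNGGGCG and the MEF2 element. An EGR match can share bases with a GC box, as it does before OSBPL2. The upstream OSBP2 start had a single match, to the AP-1 element, from base -216 to base -210 before the start. The downstream start had 2 matches to the GC box, from -135 to -130 and from -43 to -38. Of 35116 RefSeq windows of the same length, 6.57% held the AP-1 element and 42.6% the GC box. Among the 19 family windows these were held by 3 and 11. The AP-1 element was also found before a start of OSBPL8 and before OSBPL10. The GC content of the windows was 55.2% at the upstream and 69.2% at the downstream OSBP2 start.

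OSBP2 and OSBP form subfamily I, and the gap between the compounds was wide in OSBP2 and narrow in OSBP. OSBP2 encodes ORP4, which binds sterols and has been tied to the survival of leukemia cells. It had 15.99, 15.9 and 15.7 CPM in SW-138 replicates 1, 2 and 3, against 8.47, 8.77 and 9.07 CPM in SW-113 replicates 1, 2 and 3. These rest on 667, 537 and 580 counts in SW-138 and 326, 435 and 369 counts in SW-113. The groups lay far apart: the lowest SW-138 library was 1.74 times the highest SW-113 library. The 3 SW-138 libraries were nearly equal, closer together than counting noise at 537 to 667 counts would leave them. Their spread is therefore no guide to replicate variation. The mean was 15.9 ± 0.122 CPM in SW-138 and 8.77 ± 0.300 CPM in SW-113 (SD, n = 3 each), a 1.81-fold difference with a 95% interval of 1.62 to 2.03. On the log2 scale the difference was 0.86 ± 0.07 (SE), and it was 0.85 without SW-138 replicate 2. In bulk RNA, fewer cells that express a gene and less of its RNA per cell cannot be told apart. By log2 fold change, the value it was selected on, OSBP2 ranked as number 253 of all 16905 tested genes and as number 12 of the 10897 with a mean of at least 5 CPM.

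OSBP, the founding member and the closest relative of OSBP2, was even across the compounds. It had 67.2, 61.04 and 64.0 CPM in SW-138 replicates 1, 2 and 3, against 64.5, 60.1 and 63.2 CPM in SW-113 replicates 1, 2 and 3. The libraries of the groups were interleaved. The difference was 0.03 ± 0.06 on the log2 scale (SE; 95% interval -0.09 to 0.16), and its sign turned, to -0.01, when trends with transcript length and GC content were removed. It was 0.07 without SW-138 replicate 2 and 0.10 with total count alone. Set against OSBP per kilobase of exon, OSBP2 stood at 20.3 ± 0.920 per 100 of OSBP in SW-138 and 11.5 ± 0.642 per 100 in SW-113 (SD, n = 3 each). This ratio carries the difference on which OSBP2 was selected, so it is no separate result.

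**Figure D1:**
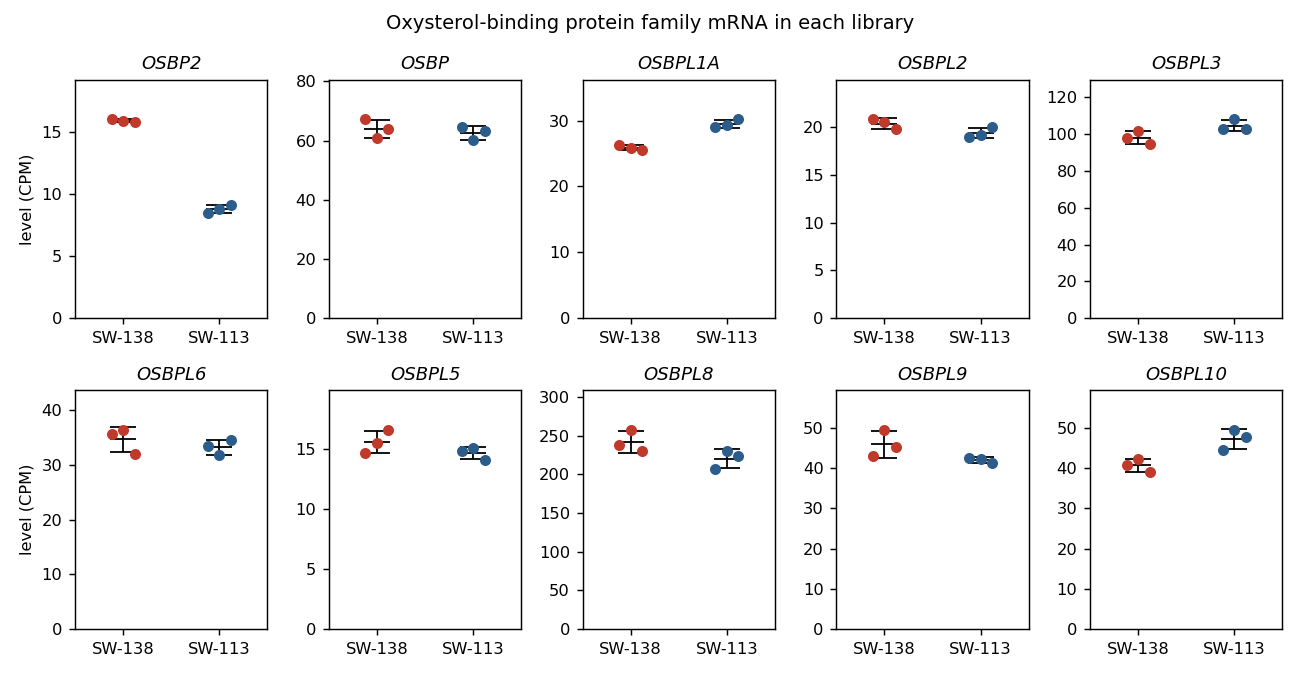
Level of the 10 family members in CPM in each library, SW-138 on the left and SW-113 on the right of each panel. Points are libraries, bars the mean with 1 SD (n = 3), and each axis starts at 0. OSBP2, at 15.7 to 15.99 CPM in SW-138 and 8.47 to 9.07 CPM in SW-113, is the panel with a wide gap.

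In subfamily II the members OSBPL1A and OSBPL2 did not share a direction. OSBPL1A encodes ORP1, whose long form sits on late endosomes with the small GTPase RAB7A and senses their cholesterol. It had 26.3, 25.8 and 25.5 CPM in SW-138 replicates 1, 2 and 3, against 28.996, 29.4 and 30.2 CPM in SW-113 replicates 1, 2 and 3. Every SW-138 library lay below every SW-113 library, and the log2 fold change was -0.19 ± 0.06 (SE; 95% interval -0.31 to -0.07). It was -0.13 with total count alone. OSBPL2 encodes ORP2, a short protein that delivers cholesterol to the plasma membrane. It averaged 20.4 ± 0.545 CPM in SW-138 and 19.4 ± 0.534 CPM in SW-113 (SD, n = 3 each), with overlapping libraries and a log2 fold change of 0.07 ± 0.06 (SE), or 0.13 with total count alone and 0.03 with trends in length and GC removed. OSBPL2 and OSBPL10 had counts that were not whole in all 6 libraries, which RSEM gives where reads are shared with other places, so their levels are less certain.

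Subfamily III holds OSBPL3, OSBPL6 and OSBPL7. OSBPL3 encodes ORP3, which binds the small GTPase RRAS and acts in cell adhesion. It had 98.1, 101 and 94.5 CPM in SW-138 replicates 1, 2 and 3, against 103, 108 and 103 CPM in SW-113 replicates 1, 2 and 3. The groups did not overlap but lay close together, and the log2 fold change was -0.09 ± 0.05 (SE; 95% interval -0.20 to 0.02). It was -0.03 with total count alone and -0.14 with trends in length and GC removed. OSBPL6, known for regulating the cholesterol exporter ABCA1 in macrophages, averaged 34.7 ± 2.36 CPM in SW-138 and 33.2 ± 1.39 CPM in SW-113 (SD, n = 3 each). The libraries overlapped at a difference of 0.06 ± 0.07 on the log2 scale (SE), which was 0.02 without SW-138 replicate 2, 0.12 without SW-138 replicate 3 and 0.13 with total count alone. It turned just negative when trends with transcript length and GC content were removed. OSBPL7, outside the 10 members, was at 10.3 ± 1.28 CPM in SW-138 and 10.9 ± 0.616 CPM in SW-113 (SD, n = 3 each). It did not pass the test, at -0.07 ± 0.10 on the log2 scale (SE; edgeR, Benjamini-Hochberg adjusted p = 0.722).

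The proteins of OSBPL5 and OSBPL8, subfamily IV, are anchored in the endoplasmic reticulum by a membrane-spanning tail and bring phosphatidylserine to the plasma membrane in exchange for PI4P. OSBPL8 was the most abundant member per length. It had 238, 257 and 230.2 CPM in SW-138 replicates 1, 2 and 3, against 207, 231 and 224 CPM in SW-113 replicates 1, 2 and 3. The groups overlapped by a narrow margin, and the highest library of all was SW-138 replicate 2. The difference was 0.13 ± 0.06 on the log2 scale (SE; 95% interval 0.001 to 0.26). It was 0.08 without SW-138 replicate 2, 0.09 without SW-113 replicate 1 and 0.02 after correction for transcript length and GC content. OSBPL5 averaged 15.6 ± 0.949 CPM in SW-138 and 14.7 ± 0.498 CPM in SW-113 (SD, n = 3 each), with overlapping libraries and a log2 fold change of 0.09 ± 0.07 (SE), or 0.15 with total count alone.

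OSBPL9, OSBPL10 and OSBPL11 encode ORP9, ORP10 and ORP11. ORP9 links the endoplasmic reticulum to the Golgi and endosomes and pairs with ORP10 or ORP11 to carry phosphatidylserine there. OSBPL9 had 43.1, 49.4 and 45.2 CPM in SW-138 replicates 1, 2 and 3, against 42.4, 42.4 and 41.2 CPM in SW-113 replicates 1, 2 and 3. All SW-138 libraries lay above all SW-113 libraries, at 0.13 ± 0.06 on the log2 scale (SE), and 0.07 without SW-138 replicate 2, the highest library. The gene overlaps 9237 bases of NRD1 on the opposite strand, which had a mean of 8067 counts and a log2 fold change of 0.02, and the strand setting of the counting is not given in the sources used here. The 5 pseudogenes of OSBPL9 held 11 counts in all libraries together.

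Subfamily VI holds OSBPL10 and OSBPL11. OSBPL10 had 40.8, 42.3 and 39.1 CPM in SW-138 replicates 1, 2 and 3, against 44.6, 49.5 and 47.8 CPM in SW-113 replicates 1, 2 and 3. The groups did not overlap, and the log2 fold change was -0.22 ± 0.06 (SE; 95% interval -0.35 to -0.09). OSBPL11, outside the 10 members, was tested and passed: it averaged 32.9 ± 2.01 CPM in SW-138 and 39.4 ± 0.836 CPM in SW-113 (SD, n = 3 each). Its log2 fold change was -0.26 ± 0.06 (SE; edgeR quasi-likelihood test, Benjamini-Hochberg adjusted p = 0.0275), and all 3 SW-138 libraries lay below all 3 SW-113 libraries. The OSBPL11 call was kept without SW-138 replicate 2 and lost in each of the other 5 fits that left out a library, where the adjusted p reached 0.121. Its log2 fold change over the 6 fits was -0.31 to -0.22.

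**Figure D2:**
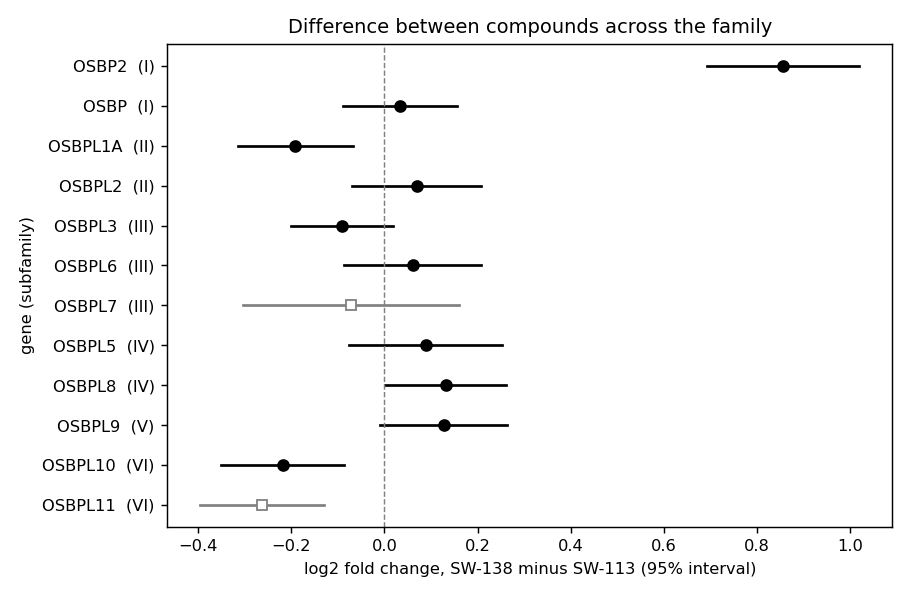
Log2 fold change, SW-138 minus SW-113, of the 12 family genes with 95% intervals, with subfamilies in brackets. Filled circles are the 10 members and open squares OSBPL7 and OSBPL11. OSBP2 lies at 0.86 and the other 11 genes between -0.26 and 0.13.

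Taken as a set, the other 9 members lay on both sides of 0. Their log2 fold changes ran from -0.22 in OSBPL10 to 0.13 in OSBPL8, with 6 above 0 and 3 below and a median of 0.06, where the median of all 16905 tested genes was 0.01. With OSBP2 included the median of the 10 was also 0.06. OSBP2, whose selection used this contrast, was the 1 member of 10 past the edgeR threshold, which is no test of it. For background, 2.76% of all tested genes were called higher in SW-138, 4.06% called lower and 6.82% called in either direction (466 higher, 687 lower). That background moved with the libraries: 509, 1616 and 605 genes were called without SW-138 replicate 1, 2 or 3, and 530, 458 and 303 without SW-113 replicate 1, 2 or 3. Scaling by total count alone gave 923 higher and 377 lower. Among the 10 members, 2 had all SW-138 libraries above all SW-113 libraries, OSBP2 and OSBPL9, where 12.4% of tested genes did. In 3 the SW-138 libraries were all below, OSBPL1A, OSBPL3 and OSBPL10, where 15.4% of tested genes were, so 5 of the 10 did not overlap, beside 27.9% of tested genes. Since OSBP2 was selected on this contrast, nothing is read from these counts.

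Scaling did not turn the direction of any of the 10 members: with DESeq2 size factors, upper quartile factors and total counts alone OSBPL1A, OSBPL3 and OSBPL10 stayed below 0 and the other 7 above it. The longest transcript of a member had a median of 4877 bases, against 3269 bases over the tested genes with a known length. The 5787 tested protein-coding genes whose longest transcript lay in the members' range, 3889 to 10513 bases, had a median log2 fold change of 0.03. OSBP2 was at 0.84 with trends in length and GC content removed.

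**Figure D3:**
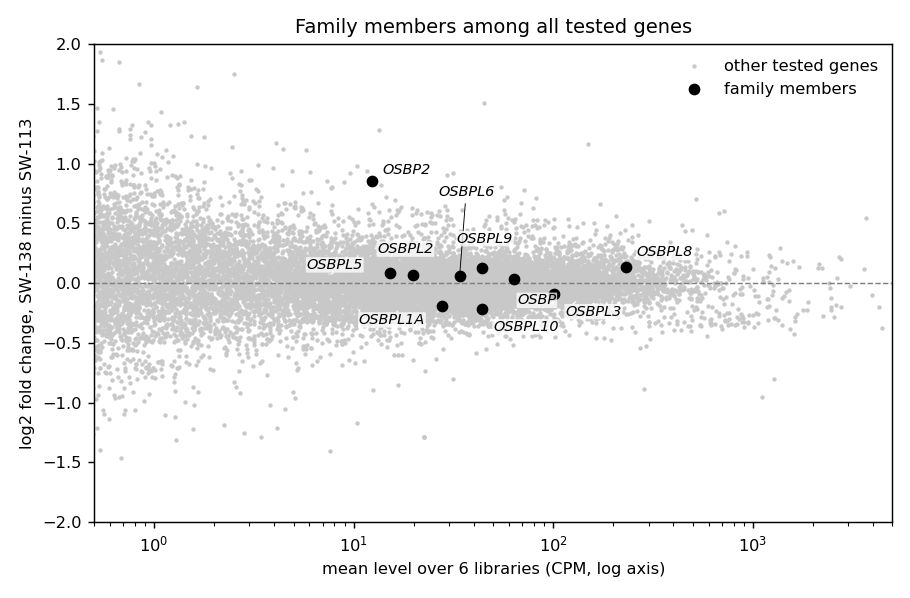
Mean level in CPM (log axis) and log2 fold change, SW-138 minus SW-113, of all tested genes in grey, with the 10 members in black. Genes outside the axes are not drawn. OSBP2 lies at the upper edge of the genes of its level, at 0.86, and the other members lie within the cloud, between -0.22 and 0.13.

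Per kilobase of merged exon the members spanned a wide range, and OSBP2 held different places in the treatments. In SW-138 the order was OSBPL8, OSBPL3, OSBP, OSBPL9, OSBPL10, OSBPL1A, OSBPL6, OSBP2, OSBPL5 and OSBPL2, from 26.3 ± 1.52 to 1.56 ± 0.0418 CPM per kilobase (SD, n = 3). OSBP2 was in place 8 there, at 2.37 ± 0.0182 CPM per kilobase. In SW-113 the first 7 places were the same, and OSBP2 came last, at 1.31 ± 0.0448 CPM per kilobase, behind OSBPL5 at 1.96 ± 0.0667 and OSBPL2 at 1.49 ± 0.0409. Neighbours whose libraries overlapped were OSBPL3 with OSBP and OSBPL10 with OSBPL1A in SW-138, and OSBPL10 with OSBPL1A in SW-113. The summed level of the 10 members was 70.5 ± 2.17 CPM per kilobase in SW-138 and 68.0 ± 1.47 in SW-113, with overlapping libraries. OSBP2 made up 3.36% ± 0.0912 of that sum in SW-138 and 1.93% ± 0.0458 in SW-113, and OSBPL8 37.2% ± 1.05 and 35.3% ± 1.205. With the longest transcript as the length, OSBP2 was in place 9 in SW-138 and last in SW-113, and OSBPL6 moved to place 10 in SW-138. The changes in the place and share of OSBP2 carry the difference it was selected on and are no separate result.

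**Figure D4:**
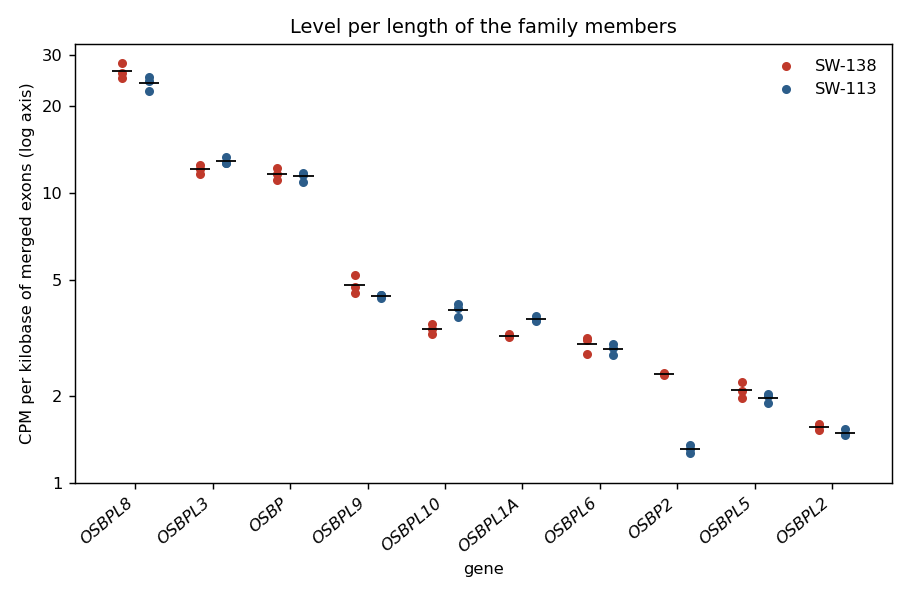
CPM per kilobase of merged exon (log axis) of the 10 members, ordered by their mean in SW-138. Points are libraries, SW-138 left of SW-113 for each gene, and lines are means. OSBP2 is at 2.37 in SW-138 and 1.31 in SW-113, while the gaps between the groups are narrower for the other genes, such as OSBPL10 at 3.40 in SW-138 and 3.95 in SW-113.

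The genes whose pattern over the 6 libraries was most like that of OSBP2, by Pearson's r of log2 CPM among genes with a mean of at least 5 CPM, were RASA4, ZNF281, CLK1, VAT1L and FAM73A. Their r with OSBP2 was 0.998, 0.995, 0.995, 0.995 and 0.995. An r does not measure the size of a difference. In the same order, their log2 fold changes were 0.82, 0.22, 0.52, 0.63 and 0.15, against 0.86 in OSBP2. All of these points share the libraries that set OSBP2 apart, and 490 of the 10896 candidate genes (4.50%) had an r above 0.9. RASA4, a Ras GTPase-activating protein gene, was at 17.6 ± 0.0319 CPM in SW-138 and 9.92 ± 0.104 CPM in SW-113 (SD, n = 3 each), and its reads can be shared with its near-identical copy RASA4B. CLK1, which encodes a kinase of splicing factors, was at 54.3 ± 1.46 CPM in SW-138 and 37.8 ± 0.547 CPM in SW-113. Within the family, r with OSBP2 ran from -0.96 in OSBPL1A to 0.77 in OSBPL2, and OSBP was at 0.30.

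Genes near OSBP2 on chromosome 22 were also looked at, a window chosen after the values of OSBP2 were known. Of 13 tested genes within 250 kb, 1 passed, where 6.82% of all tested genes did, and the median log2 fold change was 0.03. The nearest, MORC2, lies 17306 bases beyond the end of OSBP2 and was at 48.2 ± 1.24 CPM in SW-138 and 50.1 ± 3.78 CPM in SW-113 (SD, n = 3 each), a log2 fold change of -0.05 ± 0.06 (SE). The noncoding RNA gene TUG1 was at 0.06 ± 0.06 on the log2 scale. SELM, a selenoprotein gene, was the one that passed, at -0.36 ± 0.09 (SE; edgeR, Benjamini-Hochberg adjusted p = 0.043), with 9.92 ± 0.919 CPM in SW-138 and 12.7 ± 0.802 CPM in SW-113. The SELM call was lost in 5 of the 6 fits that left out a library, all but the one without SW-138 replicate 2.

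Genes that work beside the family were read from 6 lists, with each call from the fit over all tested genes. Of all 16905 tested genes 6.82% were called, 2.76% higher and 4.06% lower, and the median log2 fold change was 0.01. Among 11 membrane anchors and binding partners, 1 was lower (9.09% called) and 10 did not pass, with a median of 0.00. VAPA and VAPB, which bind many of the family's proteins at the endoplasmic reticulum, were at -0.05 ± 0.05 and 0.04 ± 0.06 on the log2 scale (SE). RAB7A, the late endosomal partner of ORP1, was at -0.10 ± 0.05 and did not pass. The gene that passed was RRAS, the partner of ORP3, at 36.8 ± 2.92 CPM in SW-138 and 45.5 ± 1.33 CPM in SW-113 (SD, n = 3 each). It differed by -0.31 ± 0.07 on the log2 scale (SE; edgeR, Benjamini-Hochberg adjusted p = 0.0208), with every SW-138 library below every SW-113 library. The RRAS call was lost without SW-138 replicate 1 or SW-113 replicate 1, 2 or 3 (log2 fold change -0.36 to -0.25 over the 6 fits). Without SW-138 replicate 2 the list had 1 higher and 1 lower.

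PI4P is the lipid that several family members carry in return for their cargo. Of 25 genes of its supply and removal, 1 was higher and 24 did not pass, with a median of -0.01. The share called was 4%, beside 6.82% of all tested genes. The one that passed was FAM126A, which encodes hyccin, a subunit of the complex that makes PI4P at the plasma membrane. It was at 134 ± 5.35 CPM in SW-138 and 107 ± 4.89 CPM in SW-113 (SD, n = 3 each), which is 0.33 ± 0.05 on the log2 scale (SE; edgeR, Benjamini-Hochberg adjusted p = 0.00831). The call was lost without SW-113 replicate 3 (0.29 to 0.36 over the 6 fits; highest adjusted p 0.0557 by edgeR). PI4KB, the Golgi kinase that makes PI4P, was at -0.09 ± 0.05, SACM1L, the phosphatase that removes it at the endoplasmic reticulum, at 0.00 ± 0.05, and ARF1, the most abundant gene of the list, at -0.04 ± 0.04, and none of these passed.

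The list of other lipid transfer genes had 27 tested, of which 2 passed as higher and 1 as lower, at a median of 0.02. That is 11.1% called, beside 6.82% of all tested genes. GRAMD1B and GRAMD1C encode endoplasmic reticulum proteins of the Aster group, which take cholesterol from the plasma membrane. Their relative GRAMD1A did not pass, at -0.05 ± 0.05 on the log2 scale (SE; edgeR, Benjamini-Hochberg adjusted p = 0.624). GRAMD1B was at 117 ± 7.82 CPM in SW-138 and 84.5 ± 3.55 CPM in SW-113 (SD, n = 3 each), which is 0.47 ± 0.06 on the log2 scale (SE; edgeR, Benjamini-Hochberg adjusted p = 0.00288), and passed in all 6 fits that left out a library. GRAMD1C was at 6.74 ± 0.714 CPM in SW-138 and 4.40 ± 0.153 CPM in SW-113, which is 0.61 ± 0.12 on the log2 scale (SE). The gene that was lower was STARD4, which carries sterols in the cytosol, at 32.6 ± 1.37 CPM in SW-138 and 41.1 ± 2.18 CPM in SW-113, which is -0.33 ± 0.06 on the log2 scale (SE). Without SW-113 replicate 3 the calls of GRAMD1C (0.56 to 0.70 over the 6 fits) and STARD4 (-0.37 to -0.29) were lost, and 1 call was left in the list. NPC1, the lysosomal cholesterol exporter and the most abundant gene of the list, was at 0.21 ± 0.08 and did not pass (edgeR, Benjamini-Hochberg adjusted p = 0.191). It did pass without SW-138 replicate 2, at 0.30 (edgeR adjusted p = 0.0154), with the replicate block (0.046) and with genes kept at 1 count in 1 library (0.0157), and it was 0.11 without SW-138 replicate 1.

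Oxysterols are also ligands of the nuclear receptors LXRα and LXRβ. Of 21 genes of oxysterol metabolism, these receptors and their targets, 15 were tested. No gene passed in edgeR (0 calls), DESeq2 (0) or limma-voom (0), where edgeR called 6.82% of all tested genes. Before adjustment 3 of the 15 had an edgeR p under 0.05, as did 22.3% of all tested genes, so nothing is read from these 3. The median log2 fold change was -0.05. NR1H2, which encodes LXRβ, was at -0.19 ± 0.06 (SE), NR1H3, which encodes LXRα, at -0.17 ± 0.11, and their target ABCA1 at -0.22 ± 0.07. NR1H2 and ABCA1 both passed with genes kept at 1 count in 1 library and with the replicate block, alone or with trends removed, and ABCA1 also with trends removed (edgeR adjusted p = 0.0274) and without SW-138 replicate 1 (0.0318). NCOR1, the corepressor that was the most abundant gene of the list, was at 0.11 ± 0.05. CH25H, the enzyme that makes 25-hydroxycholesterol, had at most 0.0815 CPM in any library and was not tested. Without SW-138 replicate 1, 1 gene of this list was called lower.

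Phosphatidylserine is the cargo of ORP5, ORP8 and ORP10. Of 18 genes of its synthesis and of phospholipid movement across membranes, 3 were higher and 15 did not pass, with a median of 0.11. Flippases were listed whichever phospholipid they move, so the list is not a measure of phosphatidylserine alone. Called genes made up 16.7% of the list, beside 6.82% of all tested genes, whose median was 0.01. ATP8B1, a flippase that moves phospholipids to the cytosolic leaflet, was at 73.03 ± 7.18 CPM in SW-138 and 44.5 ± 4.42 CPM in SW-113 (SD, n = 3 each). Its log2 fold change was 0.72 ± 0.09 (SE; edgeR, Benjamini-Hochberg adjusted p = 0.00226), and it passed in all 6 fits that left out a library. The related ATP9A was at 0.33 ± 0.07 and ANO6, a scramblase that exposes phosphatidylserine, at 0.25 ± 0.06. The calls of ATP9A (0.26 to 0.40 over the 6 fits) and ANO6 (0.20 to 0.29) were kept without SW-138 replicate 2 and lost in each of the other 5 fits, which left 1 call in the list. The ANO6 call was also lost, at 0.20 (edgeR, Benjamini-Hochberg adjusted p = 0.0921), when trends with transcript length and GC content were removed. Without SW-138 replicate 2 the list had 5 higher and 1 lower. TMEM30A, the flippase subunit that was the most abundant gene of the list, was at 0.03 ± 0.05.

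Cells also sense sterols through SREBP, which the endoplasmic reticulum holds back when cholesterol is plentiful. Of 10 tested genes of that control, 1 was lower and 9 did not pass, with a median of -0.01. This is 10% called, beside 6.82% of all tested genes. INSIG1, which retains SREBP, was at 41.5 ± 1.49 CPM in SW-138 and 53.1 ± 3.56 CPM in SW-113 (SD, n = 3 each), which is -0.36 ± 0.06 on the log2 scale (SE; edgeR, Benjamini-Hochberg adjusted p = 0.00951). The call was lost without SW-113 replicate 3. SREBF2, the most abundant gene of the list, had 250.2 ± 32.8 CPM in SW-138 and 250.6 ± 19.2 CPM in SW-113. The list had 2 higher and 1 lower without SW-138 replicate 2, and 2 lower without SW-113 replicate 2.

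**Figure D5:**
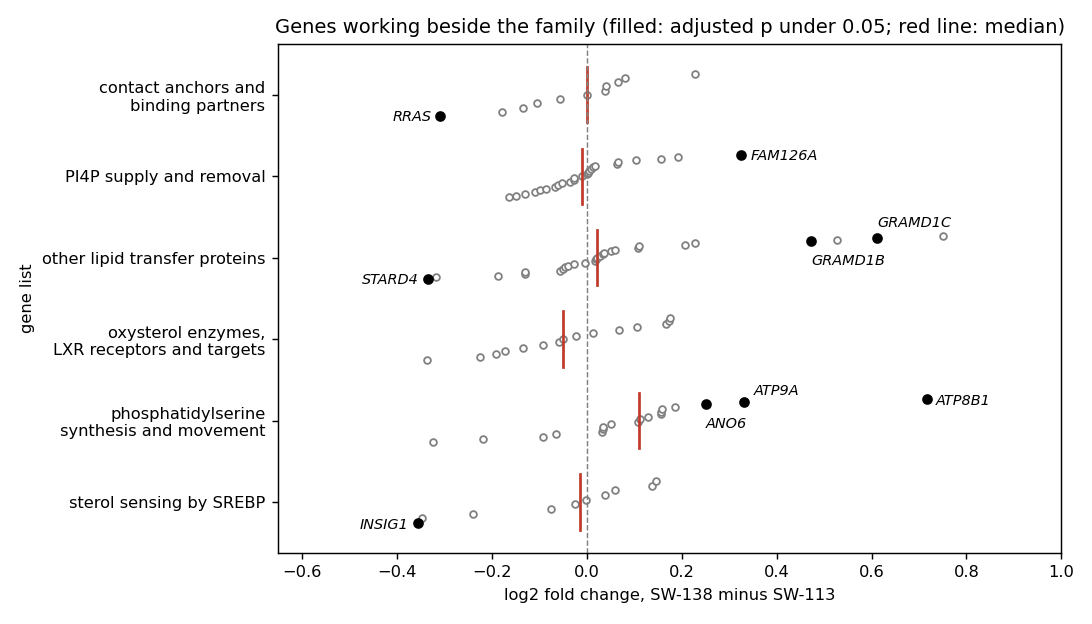
Log2 fold change, SW-138 minus SW-113, of the tested genes in 6 lists of genes that work beside the family. Each point is a gene, filled and named where its edgeR adjusted p was under 0.05, and red lines are list medians. ATP8B1 at 0.72, GRAMD1C at 0.61 and GRAMD1B at 0.47 lie farthest to the right among the filled points.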

How the data were processed

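The authors deposited 1 table of expected counts per gene for 6 libraries, estimates that need not be whole (10.6% to 11.6% of values per library were not). All sample columns matched the labels and 0 others were present. Tools listed, without role or order, per the submitters' processing notes are RSEM 1.3.3, Bowtie2 2.5.4, Trimmomatic 0.39 and DESeq2 1.42.0, with the build GRCh38. Annotation version, filters and strand setting are not given in the sources used here.

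Counts were rounded, genes kept by edgeR's filterByExpr (16905), scaled by TMM (factors 0.976 to 1.03) and fitted by quasi-likelihood in edgeR 4.0.16. Fold changes are SW-138 over SW-113, and a call is a Benjamini-Hochberg adjusted p under 0.05 among all genes tested. Standard errors and interval widths came from limma-voom (limma 3.58.1) and R was 4.3.3. Positions and lengths came from GENCODE 29, with lengths for 99.3% of tested genes, and promoters from RefSeq (GRCh38.p14). The fit was also run on counts simulated from its own model, with mean levels and dispersions estimated from these data. That run cannot test the model, the independence of the libraries or the outlying library, and nothing is read from it.

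The members, lists and tests were chosen with earlier results of these data known. Named genes were the 12 family genes, 10 regulators, up to 4 called genes with the smallest p and the most abundant gene in each list, every marker list, and the 5 genes most like OSBP2. GRAMD1A and the genes near OSBP2 were added later. Alternatives were other scalings, filters and tools, the replicate block, correction for transcript length and GC, and leaving out each library.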

Additional observations from a re-analysis of the deposited data

How the results depend on the processing

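The log2 fold change of OSBP2 (0.86) was 0.92 with total count alone and stayed within 1 replicate SD under the other 15 alternatives, 0.83 to 0.88 when a library was left out. The count of genes called (1153) was 2060 with genes kept at 1 count in 1 library, 2363 with the replicate block, 2234 with the block and length and GC trends removed, and 303 to 1616 without single libraries. Of the anchors and partners (1 called), 2 were called with upper quartile factors, total count alone, genes kept at 1 count in 1 library, genes kept at a mean of 5 CPM and DESeq2, 3 with the replicate block alone or with trends removed, and 0 to 2 without single libraries. Of the PI4P genes (1), 2 were called with total count alone and with the replicate block alone or with trends removed, and 0 to 1 without single libraries. Of the other lipid transfer genes (3), 6 were called at 1 count in 1 library and with the replicate block, 5 at a mean of 5 CPM and with the block and trends removed, and 1 to 4 without single libraries. Of the LXR list (0), 2 were called at 1 count in 1 library and with the block and trends removed, 3 with the replicate block, 1 with trends removed, and 0 to 1 without single libraries. Of the genes of phosphatidylserine synthesis and phospholipid movement (3), 5 were called with the replicate block, 2 with trends removed and 1 to 6 without single libraries. Of the SREBP genes (1), 3 were called at 1 count in 1 library, with DESeq2 and with the replicate block alone or with trends removed, 2 with trends removed, and 0 to 3 without single libraries. The cause was not tested. Same-numbered libraries had deviations correlated at 0.0584, 0.182 and 0.0323, and different-numbered libraries at -0.120 to 0.0590. These values do not settle whether the numbers pair the libraries, and the labels do not say. The replicate block was therefore kept as an alternative. Apart from SELM, no gene that the text reports as passing the test changed direction under any alternative. For SELM only the calls in the fits that left out a library were read. OSBP2 rests on 326 to 667 counts per library, and intervals from so few libraries limit how small a difference can be seen in the other members.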
